A study of Mus musculus with 6 samples.

Results

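The genes described here encode partners of MLL in leukemic fusion proteins and the machinery that such fusions bring to their targets. They were Mllt1, Mllt3, Aff1, Aff4, Ell, Dot1l, Men1, Cdk9, Ccnt1 and Eloa, a list of 10 chosen by name and function among 21887 protein-coding genes. The list was chosen with earlier results of these data known. For each gene, peaks of the nuclear pore protein NUP214 were looked for within 1 kb of either annotated end of the gene, here called gene-end peaks, and inside its span. All 10 were found in the RefSeq annotation of the mm10 build.

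NUP214 was mapped by CUT&Tag, in which an antibody guides a transposase to cut and tag nearby DNA, in sorted mouse bone marrow cells. Control LSCs (leukemia stem cells) were sorted as lineage-negative cells without Sca-1 and with c-Kit, CD34 and CD16/32, from Nup214fl/+ mice in which MLL-AF9 drove acute myeloid leukemia. Nup214-HET LSCs, called HET LSCs from here on, came through the same gate from leukemic Nup214fl/+,Tie2-Cre mice, and hematopoietic stem cells (HSCs), sorted as CD48-CD150+LSK, came from Nup214fl/+ mice. Each of these 3 groups had 2 libraries. All 3 groups carry the floxed Nup214 allele, and Tie2-Cre, which is active in endothelial and blood-forming cells, is in HET LSCs alone, so Cre and the loss of the allele cannot be told apart. HSCs differ from control LSCs in leukemia and in the sorting gate together, which cannot be told apart either. The age of the mice, how MLL-AF9 was introduced and whether libraries of 1 group had separate animals as their source are points not given in the sources used here, so the spread between them may be technical. The labels' cell type entry reads hematopoietic stem cell for every library, and the groups were taken from the titles.

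MLL is a histone methyltransferase whose gene breaks in acute leukemia and joins to a partner gene. Several partners meet in the super elongation complex. In it AFF1 or AFF4 is the scaffold, AF9 (Mllt3) or ENL (Mllt1) reads acylated histones, ELL speeds RNA polymerase II, and the kinase P-TEFb, made of CDK9 and cyclin T1, releases paused polymerase. AF9 and ENL also bind DOT1L, a histone methyltransferase, and menin tethers MLL and its fusions to chromatin. Elongin A, the product of Eloa, is another stimulator of elongation by polymerase II.

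The promoter sequences of the 5 genes with a peak beside their transcription start in both control LSC libraries are given next. Each runs from 250 bases before to 50 bases after the first listed start, 5′ to 3′ on the strand of the gene, from RefSeq, build GRCm38.p6. Capitals mark matches, on either strand, to any of 6 motifs: the ETS site CCGGAAG, the Sp and KLF box GGGCGG, the CCAAT box CCAAT, the NRF1 site GCGCATGCG, the YY1 site AAGATGGCG and the TATA box TATAAA, with overlapping matches joined. The Eloa window is chr4:136021600-136021899 on the minus strand, that of Ell chr8:70539425-70539724 on the plus strand and that of Ccnt1 chr15:98567687-98567986 on the minus strand. The Mllt1 window is chr17:56935339-56935638 on the minus strand and that of Men1 chr19:6334729-6335028 on the plus strand.
Eloa: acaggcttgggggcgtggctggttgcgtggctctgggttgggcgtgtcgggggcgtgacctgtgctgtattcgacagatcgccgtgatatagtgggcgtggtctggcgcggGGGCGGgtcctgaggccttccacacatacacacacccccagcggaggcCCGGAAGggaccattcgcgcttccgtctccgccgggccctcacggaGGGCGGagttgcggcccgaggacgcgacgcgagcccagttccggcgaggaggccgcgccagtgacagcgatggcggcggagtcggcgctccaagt
Ell: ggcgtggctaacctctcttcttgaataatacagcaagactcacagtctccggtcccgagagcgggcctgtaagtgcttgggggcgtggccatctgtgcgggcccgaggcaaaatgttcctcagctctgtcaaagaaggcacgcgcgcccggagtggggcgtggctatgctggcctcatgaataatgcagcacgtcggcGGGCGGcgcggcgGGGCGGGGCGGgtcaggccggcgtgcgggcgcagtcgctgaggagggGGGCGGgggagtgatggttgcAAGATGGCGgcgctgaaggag
Ccnt1: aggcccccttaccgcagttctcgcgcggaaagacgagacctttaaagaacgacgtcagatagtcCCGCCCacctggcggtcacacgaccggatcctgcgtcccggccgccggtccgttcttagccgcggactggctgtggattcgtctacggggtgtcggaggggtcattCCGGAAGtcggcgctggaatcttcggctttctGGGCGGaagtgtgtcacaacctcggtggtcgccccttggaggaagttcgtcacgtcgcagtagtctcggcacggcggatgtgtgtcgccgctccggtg
Mllt1: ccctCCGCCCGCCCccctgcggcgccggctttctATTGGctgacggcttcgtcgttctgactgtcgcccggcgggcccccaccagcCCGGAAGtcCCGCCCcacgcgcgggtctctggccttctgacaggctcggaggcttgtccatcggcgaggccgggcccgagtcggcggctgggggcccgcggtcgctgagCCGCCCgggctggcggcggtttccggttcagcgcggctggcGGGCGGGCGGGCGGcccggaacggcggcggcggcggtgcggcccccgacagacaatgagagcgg
Men1: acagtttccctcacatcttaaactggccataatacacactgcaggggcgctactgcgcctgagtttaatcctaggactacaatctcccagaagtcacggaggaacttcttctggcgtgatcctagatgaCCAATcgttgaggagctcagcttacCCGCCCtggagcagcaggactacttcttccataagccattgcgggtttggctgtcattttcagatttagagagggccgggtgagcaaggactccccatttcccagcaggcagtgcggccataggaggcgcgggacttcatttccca

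The NUP214 summits of control LSCs lay inside these windows in both libraries at Eloa, Ccnt1 and Men1, and in library 2 alone at Mllt1. At Ell no summit lay inside it, although the peak overlapped the window by 261, 187, 182 and 182 bases in the 4 LSC libraries. The G and C content was 70.0% at Eloa, 66.3% at Ell, 63.7% at Ccnt1 and 77.7% at Mllt1, above the median of 56.3%, and 53.3% at Men1, below it, where the median is over 21263 promoter windows of protein-coding genes. Among the first windows of all 10 genes the Sp and KLF box was found in 9, against 46.2% of all windows, the ETS site in 5, against 11.6%, and the CCAAT box in 4, against 38.2%. The YY1 site was found in 2, against 1.83%. The NRF1 site and the TATA box were in 0 of 10, against 2.35% and 12.6%. A match describes letters and is not a binding site. G and C content differed between the 10 windows (median 73.3%) and the background, and its part in these shares was not tested.

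NUP214 peaks lay at the ends of 9 of the 10 genes in control LSC library 1, of 5 in library 2, of 4 and 2 in the HET LSC libraries and of 0 in either HSC library. Over all protein-coding genes the shares with a gene-end peak were 43.3% and 21.9% in control LSCs, 11.5% and 9.49% in HET LSCs, and 1.04% and 0.0868% in HSCs. The mean number of these genes per library was 7 ± 2.83 in control LSCs, 3 ± 1.41 in HET LSCs and 0 ± 0 in HSCs (SD, n = 2 each). The HSC lists held none of the 57 peaks within 5 kb of these genes, so no place there could have a peak in every library. The fall from control to HET LSCs ran beside the fall over all genes. The lists held 25437 and 10525 peaks in control LSCs, 5452 and 4681 in HET LSCs, and 1045 and 634 in HSCs. Depth implied by the lists was 3.72, 1, 1.77, 1.72, 4.90 and 1.95 relative to control LSC library 2, in the same order. The smallest peak widths were 145, 143, 320, 329, 205 and 229 bp, in the same order. The parts of depth and of peak width in the counts were not tested. No library is labelled as made without the NUP214 antibody, so cutting by the transposase unrelated to NUP214 was not measured.

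**Figure D1:**
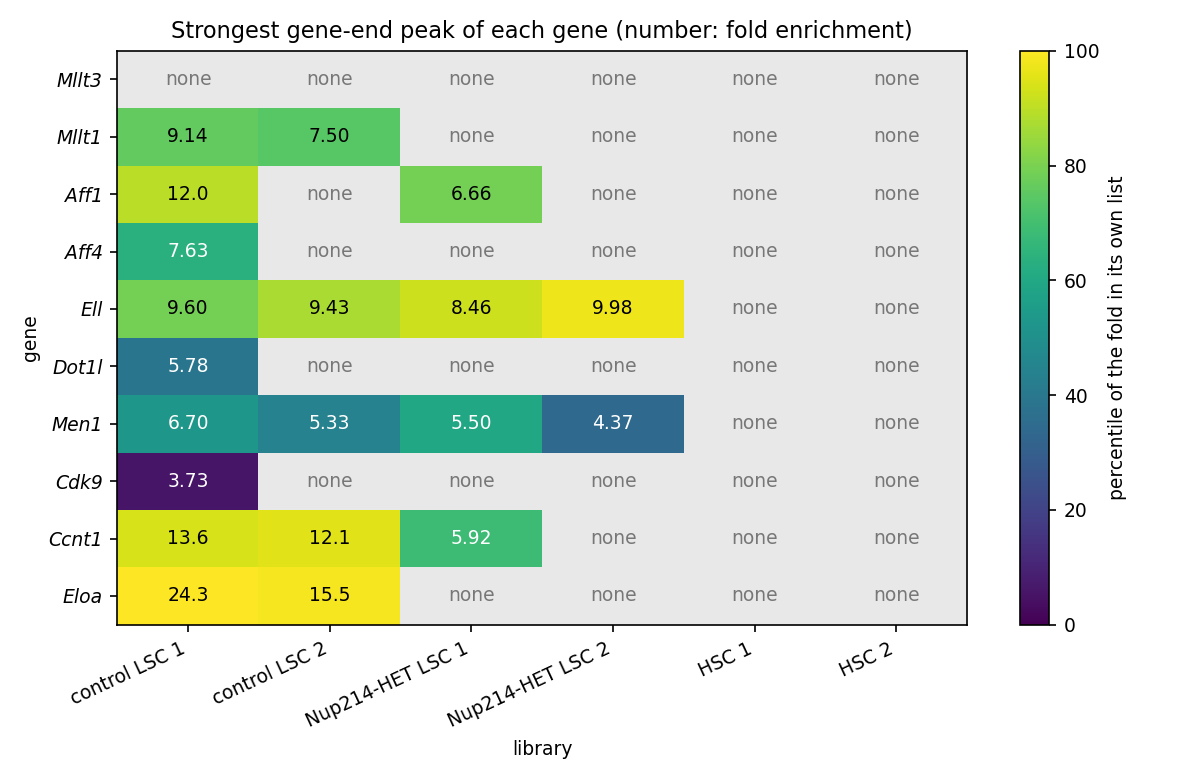
Fold enrichment of the strongest gene-end peak of each of the 10 genes (rows) in each of the 6 libraries (columns), printed in the cell, with the colour giving the percentile of that fold in its own list and grey cells marked none where the list holds no gene-end peak. Ell and Men1 are coloured in all 4 LSC libraries, Eloa and Mllt1 in both control LSC libraries alone, and the HSC columns are all grey.

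**Figure D2:**
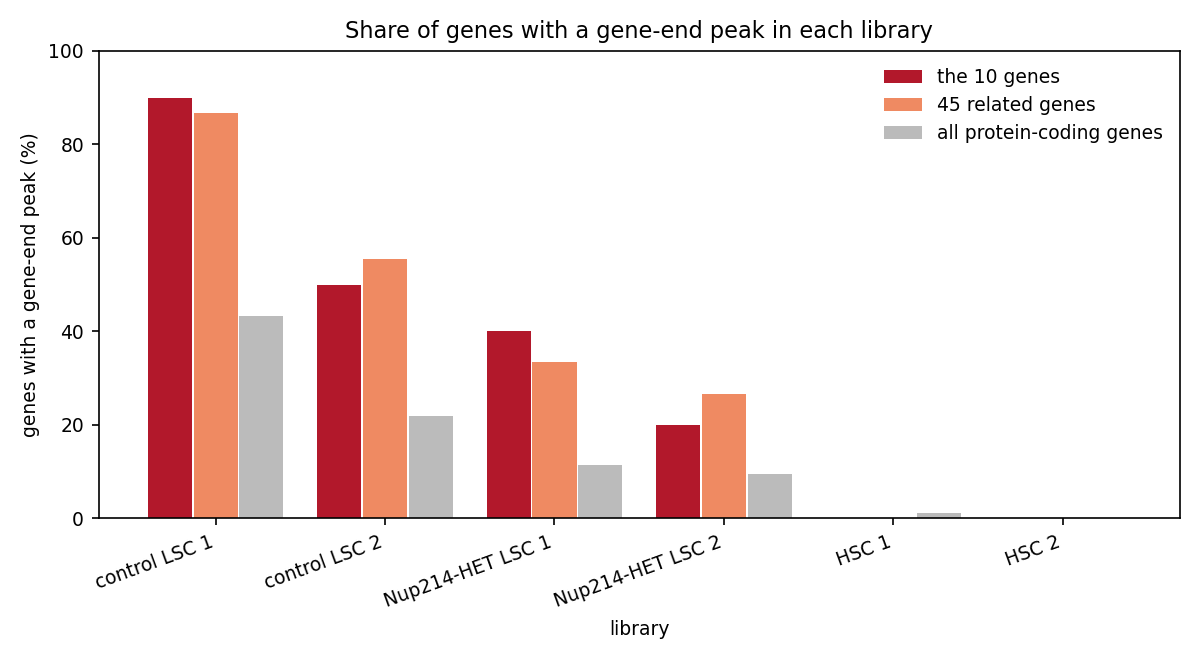
Share of genes with a gene-end peak in each library, in percent, as bars for the 10 genes (red), 45 related elongation and MLL complex genes (orange) and all 21887 protein-coding genes (grey). All 3 shares are lower in HET LSC than in control LSC libraries and at or near 0 in HSCs, and over all genes they go from 43.3% to 0.0868%.

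Both control LSC libraries called 5 of the 10 (Mllt1, Ell, Men1, Ccnt1 and Eloa), against 21.3% of all genes. Both HET LSC libraries called 2 of 10 (Ell and Men1), against 6.76%, and both HSC libraries 0 of 10, against 0.0411%. With lists ranked by q and each cut to the 4681 strongest peaks, an alternative chosen after the data were seen, the 4 LSC libraries held 4, 4, 4 and 2 of the genes, against 17.7%, 14.3%, 11.2% and 9.49% of all genes. The mean difference between the LSC groups was then 1 gene in place of 4. With control LSC library 2 left out, the control LSC genes would number 9, and 5 of those had no gene-end peak in HET LSCs.

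Mllt3, the gene of the fusion partner AF9 itself, had no NUP214 peak in any of the 6 libraries, neither at its ends nor in its span on chromosome 4 from 87769925 to 88033407, nor within 5 kb beyond. It is the longest of the 10 genes at 263 kb. A peak at an end or in the span in at least 1 library was held by 59.5% of all genes and by 9 of these 10, and among genes of at least 200 kb by 87.0%. At the rate of peaks inside all genes, a stretch as long as the Mllt3 span without its ends would hold 2.32 and 0.839 peaks in the control LSC libraries and 0.445 and 0.390 in the HET LSC libraries. An endogenous gene without a listed peak is not a measure of the fusion, which the lists do not show.

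Mllt1 encodes ENL, which reads acylated histones as AF9 does. Its start, on chromosome 17, carried a peak with a fold enrichment of 9.14 in control LSC library 1 (56935461 to 56935972) and of 7.50 in library 2. Folds are the values that the authors gave each peak, and serve here to order the peaks of 1 list. The Mllt1 folds stood at ranks 6111 of 25437 and 2753 of 10525. The summits lay 133 and 52 bp upstream of the outermost start, 81 bp from each other, and held 27 and 10 overlapping fragments. Neither HET list and neither HSC list had a peak there. Control LSC library 2 had another peak 9.82 kb inside the gene, with a fold of 4.07. With lists cut to 4681 peaks, Mllt1 was kept in control LSC library 2 alone, so its call then no longer separated the LSC groups.

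Aff1 and Aff4 encode the alternative scaffolds of the super elongation complex, and each was called at an end in a minority of libraries. Aff1 carried a peak at its outermost end (chromosome 5, 103692185 to 103692498) of fold 12.0 in control LSC library 1, and 1 of 6.66 in HET LSC library 1, their summits 37 bp apart. Control LSC library 2 and HET LSC library 2 had none there, so the groups overlapped. This outermost end lies 61.8 kb upstream of the starts listed in the promoter table, and control LSC library 1 held another peak over those starts, from 103753555 to 103754228, with a fold of 6.26. Inside Aff1 that library held 6 peaks in all and control LSC library 2 held 1. Aff4 had a gene-end peak in control LSC library 1 alone, with a fold of 7.63, a summit 265 bp inside the gene and 23 fragments, and 1 weaker peak in its span in the same library.

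Ell, an elongation factor first known as a partner of MLL, was called at its start in all 4 LSC libraries. The fold enrichment was 9.60 and 9.43 in control LSCs and 8.46 and 9.98 in HET LSCs. Within each list the peak ranked at the 78.9th and 87.3rd percentile of fold in control LSCs and at the 92.5th and 97.5th in HET LSCs. It was therefore placed higher in the shorter lists, while lists of different length show no change in binding by rank. In control LSC library 1 the peak spanned chromosome 8 from 70538653 to 70539685. Summits were 306 and 307 bp upstream of the start in control LSCs, 1 bp apart, and 483 and 662 bp upstream in HET LSCs. The 4 summits held 119, 39, 79 and 82 fragments. The start of the lncRNA Gm51534, on the opposite strand, lies beside these summits, so the peak cannot be assigned to Ell alone. A second Ell site 10.2 kb inside the gene was called in control LSC library 1 with a fold of 7.43 and in library 2 with 5.86, and in no other library.

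**Figure D3:**
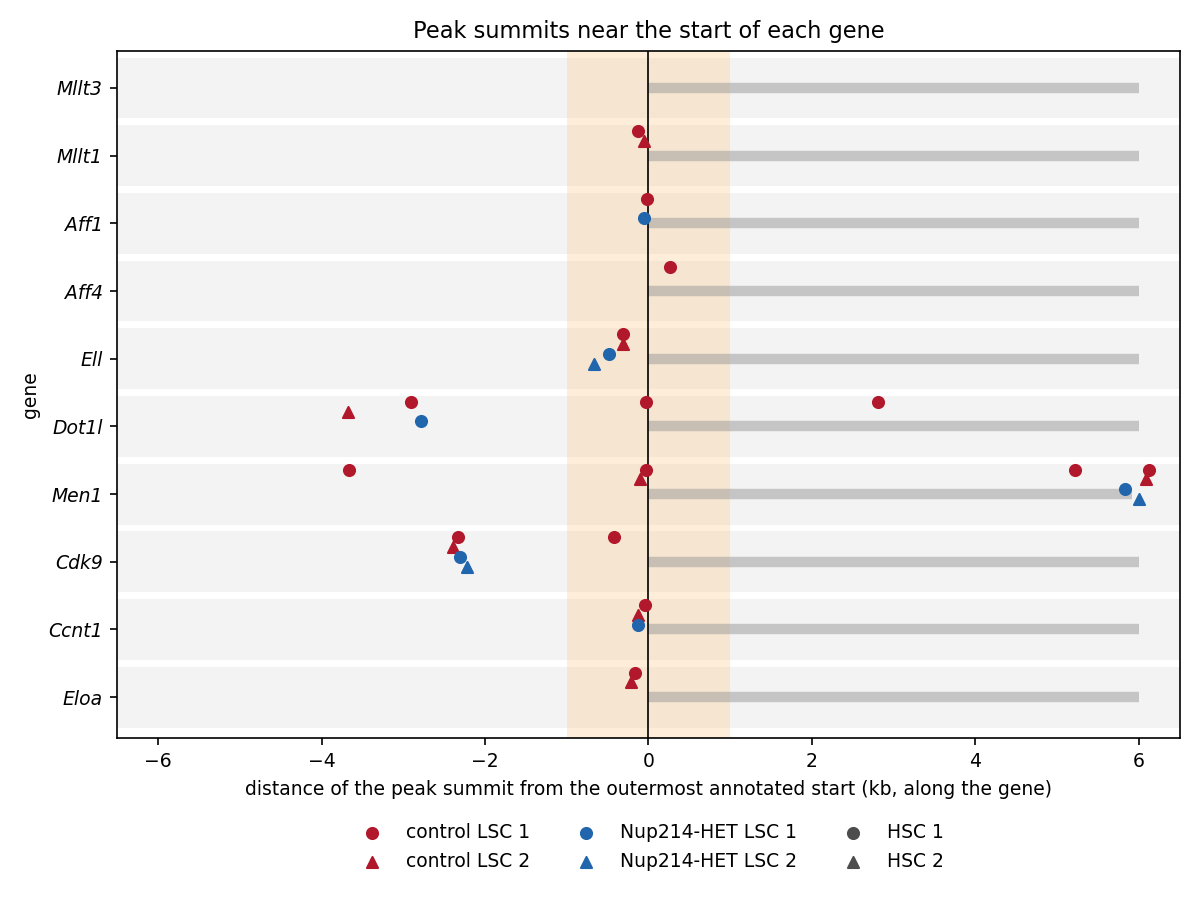
Distance of each peak summit from the outermost start of its gene, in kb along the gene, with a colour for each group, a circle for library 1 and a triangle for library 2. The orange band is the 1 kb window, grey bars show the gene as far as the range drawn, and no HSC summit falls in it. The Ell summits sit 306 to 662 bp upstream, the Eloa summits 163 and 214 bp upstream, and the far-side Men1 summits lie around the other end of that short gene.

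Dot1l, the methyltransferase bound by AF9 and ENL, was called at its start in control LSC library 1 alone, on chromosome 10, with a fold of 5.78 at rank 15502 of 25437. Regions near the gene were called in more libraries. A site 2.90 kb upstream had a fold of 6.27 in that library, and sites 3.68 and 2.78 kb upstream had 3.64 in control LSC library 2 and 4.14 in HET LSC library 1. The shared promoter of the neighbours Plekhj1 and Sf3a2, beyond the far end, had 8.01 and 5.11 in control LSCs and 6.68 in HET LSC library 1. Control LSC library 1 also had 3 peaks inside Dot1l. These flanking sites lie outside the 1 kb window and were not counted.

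Men1, which encodes menin, was called at its far end in all 4 LSC libraries and at its start in control LSCs alone. At the start, on chromosome 19 from 6334753 to 6335119, the folds were 6.70 and 5.33 in control LSCs, with 21 and 7 fragments, and neither HET list held a peak. At the far end, where the gene Map4k2 starts, they were 5.98 and 4.37 in control LSCs, the former beside a weaker peak of 4.24, and 5.50 and 4.37 in HET LSCs. The Men1 calls in HET LSCs therefore rest on the end shared with Map4k2, a kinase gene. Counting a peak within 1 kb of a listed start in place of either end, the lists held 9, 5, 2 and 1 of the 10 genes in the 4 LSC libraries, against 45.4%, 23.2%, 12.2% and 10.0% of the 17492 genes with a listed start. Both control LSC libraries then shared 5, against 22.7%, and both HET LSC libraries 1, Ell, against 7.31%.

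Cdk9 and Ccnt1, the kinase and the cyclin of P-TEFb, differed in their calls. At the start of Cdk9, on chromosome 2, control LSC library 1 had a peak with a fold of 3.73 at rank 23972 of 25437 and no other library had any. Its summit lay 418 bp from the Cdk9 start and 108 bp from the start of the lncRNA Gm33457, with the microRNA genes Mir2861 and Mir3960 also there, so the peak cannot be assigned to Cdk9 alone. A site 2.22 to 2.39 kb upstream, inside Gm33457, was called in all 4 LSC libraries, at a fold of 7.0 and 8.93 in the control libraries and 4.02 and 4.87 in the HET libraries. With a window of 2 kb the upstream peaks of both HET LSC libraries reached the window. The Cdk9 difference in the share of libraries called then turned from 0.5 higher in control LSCs to −0.5. The Ccnt1 start, on chromosome 15 from 98567395 to 98568067, carried peaks of fold 13.6 in control LSC library 1, 12.1 in library 2 and 5.92 in HET LSC library 1, with 66, 22 and 16 fragments. HET LSC library 2 had none there, and it did have a peak of 6.47 at the start of the neighbour Kansl2. The summits in control LSC library 2 and HET LSC library 1 were 1 bp apart. The start of the lncRNA 9330020H09Rik, on the opposite strand, lay 452, 545 and 546 bp from the Ccnt1 summits. These peaks therefore cannot be assigned to Ccnt1 alone.

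Eloa had the gene-end peak of highest fold and −log10 q among the 10 genes in both control LSC libraries, and no peak in the other 4 libraries. By summit fragments and by multiple of background Ell stood higher in both. In control LSC library 1 the peak (chromosome 4, 136021666 to 136021994) had a fold of 24.3, a −log10 q of 119 and 114 fragments at the summit. Control LSC library 2 had it from 136021694 to 136021973, with a fold of 15.5, a −log10 q of 27.6 and 27 fragments. The summits were 51 bp apart, 163 and 214 bp upstream of the start. They stood at 305 and 272 times the background of their libraries. The smallest peak widths were 145 and 143 bp in control LSCs and 320 and 329 bp in HET LSCs. These widths were taken to follow the fragment length used in peak calling, an assumption, so the multiples were not compared between groups. The part of this difference in the calls and folds was not tested. No other gene's listed start lay beside the Eloa peak.

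By its strongest gene-end fold, Eloa was 7th of 9485 genes in control LSC library 1 and 57th of 4800 in library 2. A fold at or above that of Eloa in both control LSC lists was held by 2 genes, Eloa and 1 other, and that other gene was called in both HET LSC libraries. Of the 65 genes within the 200 highest in both control LSC lists, a limit set with the values in view, 35 were called in both HET LSC libraries, 18 in 1 and 12, Eloa among them, in neither. Eloa stood at ranks 108 and 244 by q, and its call was kept when all lists were cut to the 634 strongest peaks.

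**Figure D4:**
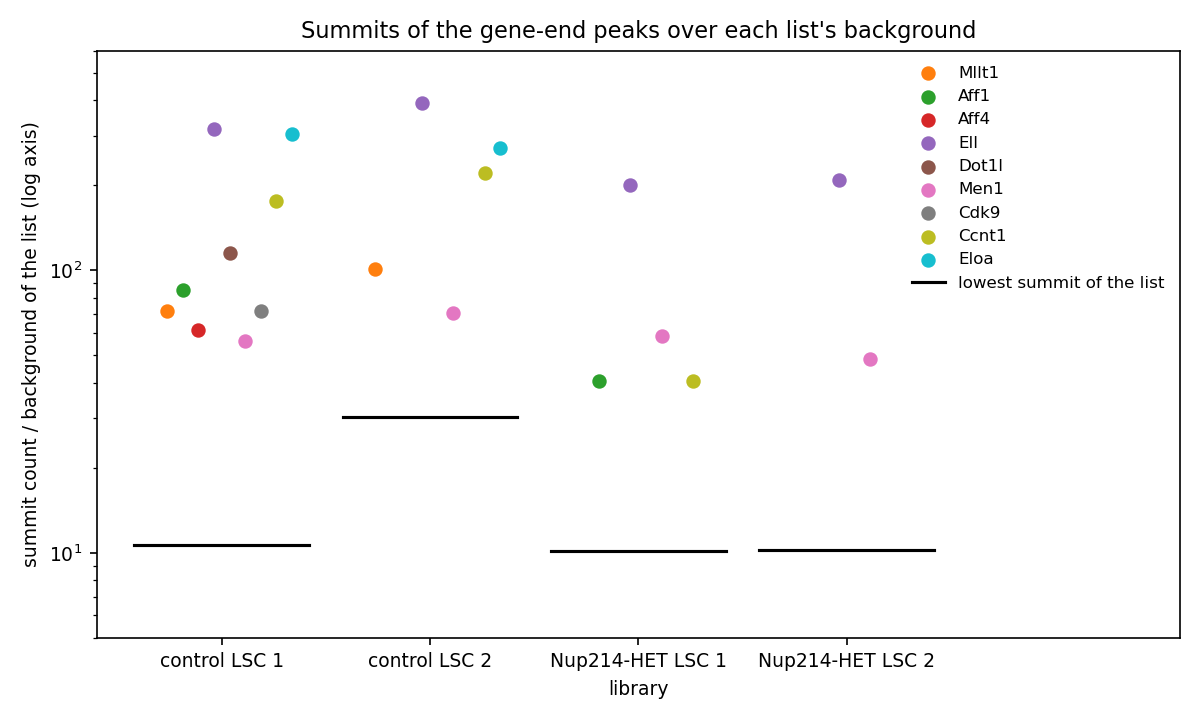
Summit fragment count of the strongest gene-end peak of each gene, as a multiple of the library's background on a log axis, in the 4 LSC libraries; colours mark genes and black lines the lowest summit of each list. Eloa and Ell stand highest in control LSCs, at 305 and 318 in library 1. Multiples are not compared between groups.

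Mllt1 and Eloa were the 2 genes called in both control LSC libraries and in neither HET LSC library, a pattern held by 10.8% of all genes. Of the 4655 genes called in both control LSC libraries, 50.7% had this pattern, against 2 of the 5 genes here. Ell and Men1 were called in all 4 LSC libraries, as were 5.82% of all genes. With lists cut to 4681 peaks, Men1 was called in neither control LSC library and in both HET LSC libraries, so its difference in the share of libraries called went from 0 to −1. For Mllt1 and for Eloa the exact permutation test of the calls (two-sided, n = 2 per group) gave p = 0.33, the smallest that 2 against 2 libraries allow, with an adjusted p of 1 over all genes. For the other 8 genes the exact permutation p was 1. Against HSCs, 5 genes (Mllt1, Ell, Men1, Ccnt1 and Eloa) were called in both control LSC libraries and in neither HSC library, with an exact permutation p of 0.33 each, where 20.3% of all genes had that pattern. No HSC peak lay within 5 kb of any of the 10 genes. The nearest was 9.15 kb from Aff4 in HSC library 1, and in HSC library 2 the nearest to any was 236 kb from Mllt1. Since HSC lists held so few gene-end peaks, 0 of 10 is near the background.

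The 10 genes did not stand higher in their lists than other called genes in every library. The median percentile of the strongest gene-end fold was 76.0 for the called genes in control LSC library 1, against 75.2 for all called genes, and 87.3 against 71.0 in library 2. In HET LSCs it was 73.8 against 68.5 and 65.9 against 68.8. Of the gene-end peaks, those on the start side numbered 9, 5, 3 and 1 in the 4 LSC libraries, and those on the far side 2, 1, 1 and 1.

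Peaks inside the genes, more than 1 kb from either end, were seen in control LSCs and in no other group. There were 14 in library 1 and 3 in library 2, and 0 in each of the other 4 libraries. Summits inside these genes came to 2.08 and 0.445 per 100 kb in the control LSC libraries, against 0.887 and 0.321 over all genes. The HET LSC libraries had 0, against 0.170 and 0.149 over all genes, and the HSC libraries 0, against 0.0356 and 0.0239. With rates this low over all genes, 0 in these groups is near the background. Counting every peak that touches the span, 5 of the 10 genes had one in both control LSC libraries, against 24.5% of all genes. That count includes gene-end peaks reaching into the span, as at Men1 and Ccnt1, which had no peak more than 1 kb from either end. With summits in place of peaks it was 2 of the 10 genes. Of the 14 peaks more than 1 kb from either end in library 1, Aff1 held 6, Ell 4 and Dot1l 3.

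**Figure D5:**
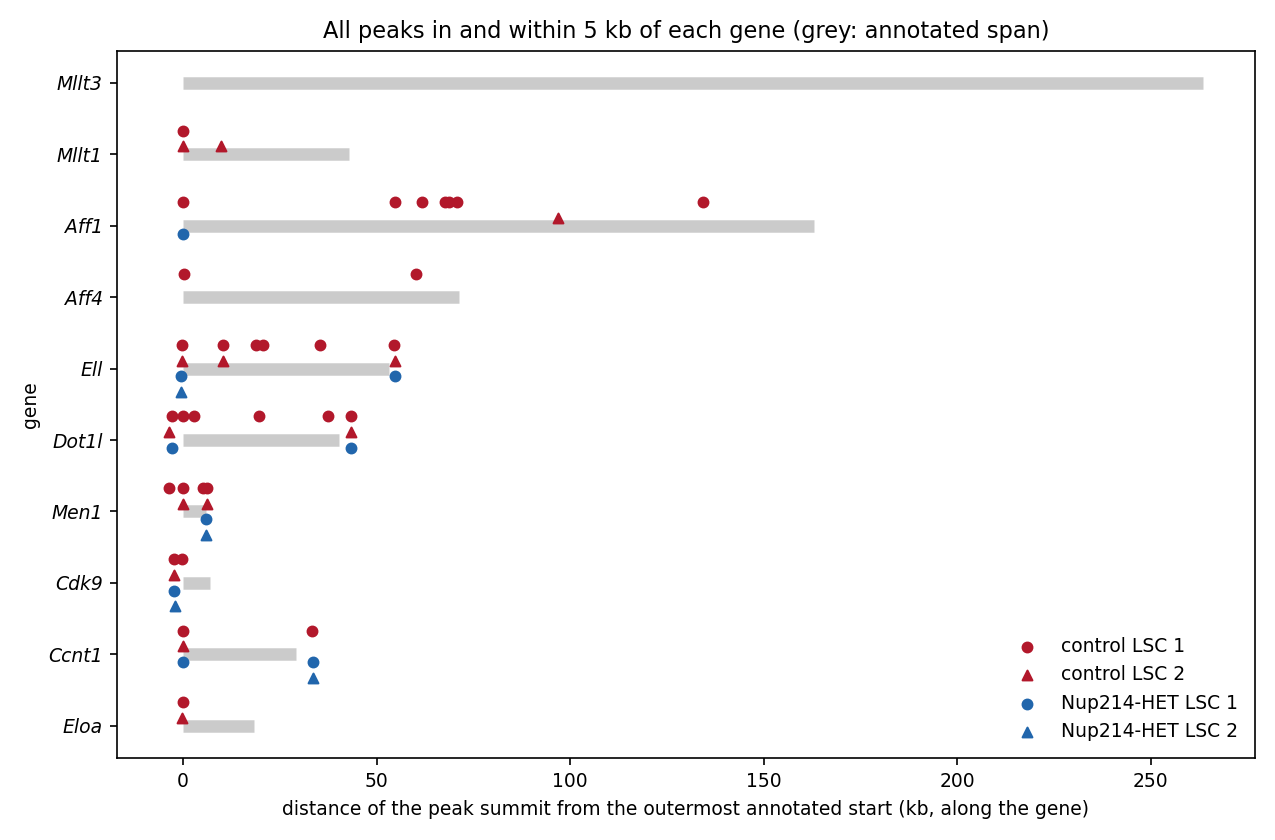
Position of each NUP214 peak along the 10 genes in the LSC libraries, as distance of the summit from the outermost start in kb, with the gene drawn as a grey bar to scale, circles for library 1 and triangles for library 2. The HSC lists had no peak in the range drawn, and Mllt3 has none in any library.

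A list of 45 further genes of the same machinery was described beside the 10 in order to set their counts. Gene-end peaks were found at 39 and 25 of them in control LSCs, at 15 and 12 in HET LSCs and at 0 in HSCs. In both control LSC libraries 25 were called (55.6%), and in both HET LSC libraries 7 (15.6%), where the shares over all genes were 21.3% and 6.76%. Of the 25, 9 (36.0%) had no gene-end peak in HET LSCs, against 50.7% of all genes called in both control LSC libraries. Among super elongation complex and P-TEFb genes 8 of 15 were called in both control LSC libraries and 4 in both HET LSC libraries. Among DSIF, NELF, PAF and other elongation factors the counts were 11 and 1 of 16, and among MLL complexes and fusion partners 4 and 2 of 12. Both elongin partners were called in both control LSC libraries and in no HET LSC library, a pattern of 10.8% of all genes and of 50.7% of those called in both control LSC libraries. They are Elob and Eloc, the partners that Eloa binds, with folds of 8.08 and 5.80 and of 8.17 and 6.33, named here after their values were seen. The same pattern was held by 6 of the 11 DSIF, NELF, PAF and other elongation factors called in both control LSC libraries. It was held by 1 of the 8 such super elongation complex and P-TEFb genes and by 0 of the 4 such MLL complex and fusion partner genes.

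Called in all 4 LSC libraries were 6 of the 45 genes, against 5.82% of all genes, namely Hexim1, Larp7, Mepce, Ccnk, Supt6 and Kmt2b. Hexim1, Larp7 and Mepce belong to the small RNA and protein complex that holds P-TEFb inactive. Hexim1 peaks had a fold of 11.9 in control LSC library 1, 8.73 in library 2, and 6.95 and 6.23 in the HET LSC libraries. Larp7 had 14.5, 9.82, 10.2 and 8.83 in the same order, and Mepce had 13.7, 13.0, 7.49 and 8.04. Ccnk, the cyclin of CDK12 and CDK13, had 16.2, 14.2, 7.83 and 6.53. Kmt2b, a relative of MLL, had 12.6, 6.05, 6.96 and 5.26, and Supt6, a histone chaperone of elongating polymerase, had 10.9, 7.54, 7.17 and 5.18. The Larp7, Mepce, Ccnk, Supt6 and Kmt2b peaks are shared with the neighbours Zgrf1, Zcwpw1, Setd3, Sdf2 and Zbtb32, so they cannot be assigned to 1 gene. Aff2, Aff3, Hexim2, Rbbp5, Dpy30 and Mllt10 had no gene-end peak in any library. Hexim2 did have a peak in its span in all 4 LSC libraries, and Mllt10 in both control LSC libraries and HET LSC library 2. Span peaks were also listed for Dpy30 in both control LSC libraries and for Aff3 in control LSC library 1. Aff2 and Rbbp5 had no span peak in any library.

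Markers of the cells in the sorts were also looked at, although a peak at a gene is not its expression, so the labels were not checked by them. Of 6 granulocyte-monocyte and LSC gate genes, gene-end peaks lay at 4 and 2 in control LSCs and at 0 in the other libraries. HSC markers had 0 of 5 in every library, and B cell and erythroid markers 0 of 3. T cell markers had 2 and 1 of 3 in control LSCs and 1 and 1 in HET LSCs, and endothelial markers 1 and 1 of 3 in control LSCs. Over all genes the shares were 43.3% and 21.9% in control LSCs, 11.5% and 9.49% in HET LSCs, and 1.04% and 0.0868% in HSCs. Some markers, HSC, B cell and erythroid ones among them, had peaks in their spans, which were not counted here. The part of such cells in the counts of the 10 genes was not tested.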

How the data were processed

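Per the submitters' processing notes, the tools were Bowtie2 2.2.9, FastQC 0.11.5, ChIPseeker and MACS2, and the build was mm10. Peak caller settings, duplicate handling and any control are details not given in the sources used here. The authors called peaks per library, per the file layout. The authors' deposited lists give each peak a fold enrichment (a linear ratio of summit over local background), a −log10 p-value and −log10 q-value, and a score. They end at q = 0.05 and hold no read totals.

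Peaks touching 1 kb windows at the outermost ends of genes (RefSeq GRCm38.p6, the mm10 build), by at least 1 bp, were counted with Python 3.11.15, numpy 2.4.6, pandas 2.3.3 and scipy 1.17.1. Summit fragment counts and background were recovered from the deposited fold and −log10 p by the formulas of MACS2, at a tolerance of 0.0001 (relative) in 97.3% to 99.95% of peaks, and checked on simulated data. Implied depth is the lowest background over the smallest peak width, an assumption from the tool and not from the labels. Calls were compared by exact permutation tests with Benjamini-Hochberg adjustment over all genes. All 10 genes were named, and of the 45 related genes those called in all 4 LSC libraries or in none. Elob and Eloc, which meet neither condition, were also named, after their values were seen. The gene lists, rules and tests were chosen with earlier results of these data known. Alternatives were a stricter q, shorter lists, other windows, summits in place of peaks, starts alone, each library left out and a replicate block. The labels do not say whether replicate numbers pair libraries. Deviations from group means correlated at 0.00201, −0.0428 and 0.00122 between groups, which cannot decide it with 2 libraries per group.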

Additional observations from a re-analysis of the deposited data

How the results depend on the processing

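The part of depth in these counts was not tested, and 2 against 2 libraries give no exact permutation p under 0.33. Leaving out 1 library at a time, the genes called in control LSCs ranged from 5 to 9, those called in HET LSCs from 2 to 4, those of control LSCs absent from HET LSCs from 2 to 5 and those absent from HSCs from 5 to 9. The mean difference ranged from 2 to 6 against HET LSCs and from 5 to 9 against HSCs, genes whose calls separated the groups from 2 to 5 and from 5 to 9, genes with a span peak in both control LSC libraries from 5 to 7, and related genes from 25 to 39 in control LSCs and from 7 to 15 in HET LSCs.

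With lists cut to 634 peaks, 2 genes were called in control LSCs, 1 in HET LSCs, 1 in control LSCs and not in HET LSCs, and 2 not in HSCs. The mean difference was 1.5 against HET LSCs and 2.5 against HSCs, calls separated the groups for 1 gene against HET LSCs and 2 against HSCs, 0 genes had a span peak in both libraries, and 2 and 3 related genes were called in the LSC groups. With lists cut to 4681 peaks, chosen after seeing the data, the values were 3 genes in control LSCs, 1 absent from HET LSCs and 3 absent from HSCs, mean differences of 1 and 4, 1 span gene, and calls separating 3 genes from HSCs. Span genes numbered 3 with a −log10 q of at least 3 and 2 with summits in place of peaks. With starts alone 1 gene was called in HET LSCs. With a window of 2 kb the Cdk9 difference was −0.5. The cause of these changes was not tested, except that shorter lists hold fewer peaks by construction.

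With the replicate block the mean differences were 4 and 7 and the calls separating groups 2 and 5, as without it, and the smallest paired exact permutation p was 0.5. Whether replicate numbers pair the libraries is not given in the labels.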
